A study of Drosophila melanogaster with 8 samples.

Results

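The axonemal dynein heavy chain genes of *Drosophila melanogaster* were examined in testes and larvae with reduced Tgs1, the enzyme that makes the trimethylguanosine cap of small nuclear RNAs. The genes were chosen by name and matched by gene name, symbol or synonym. *Dhc16F* carries different FlyBase identifiers in the testis and the larval values, at the same place on the X chromosome. They were the Y-linked *kl-2*, *kl-3* and *kl-5*, the X-linked *Dhc16F* and the autosomal *Dhc36C*, *Dhc62B*, *Dhc93AB*, *Dhc98D* and *CG3339*, which make 9 of the 15612 genes listed for testes and 9 of the 15735 named genes listed for larvae. Poly(A)-selected RNA was sequenced from the testes of *tgs1hypo* and wild-type males, and from *tgs12-3* and wild-type second instar larvae, with 2 libraries in each of 4 groups. The 3 Y-linked genes were set beside the 6 others, and each gene was compared between wild type and mutant within its tissue.

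Both testis groups carried the *tgs1hypo* background by their sample labels, which is the combination of the *moiCB0* and *tgs115-11* alleles at the shared *moi* and *tgs1* locus. The libraries titled wild type are labelled as expressing a *tgs1* cDNA under *bam*, and those titled *tgs1hypo* as expressing a *moi* cDNA under *bam*. The *bam-gal4* driver acts in the germline, so under these labels somatic cells of the testis would have the mutant background in both groups. The sample titles and the study's methods instead name the groups wild type and mutant, and which genotype the libraries carry is not settled. They are called wild type and *tgs1hypo* here, as titled, and every difference between them is one between libraries so titled. Each library came from about 100 testes by the labels, pooled from several males. The larval control was *tgs12-4*, an allele without a lesion in either reading frame, and the mutant was *tgs12-3*, a CRISPR/Cas9 frameshift allele whose larvae die in the second instar. Their mothers were heterozygous, so that maternal Tgs1 product may still be present. Each larval library came from about 80 animals, and the sex of the larvae was not given in the sources used here. The testes came from adults. Values are FPKM, fragments per kilobase of transcript scaled to the fragments of the library, so that levels could be compared between genes of different length.

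Axonemal dyneins are the motors that slide the microtubule doublets of a beating cilium or flagellum. Each heavy chain carries the motor domain, and the heavy chains sit in outer arms and inner arms together with intermediate and light chains. In the fly, motile axonemes are found in the sperm tail and in the mechanosensory cilia of chordotonal neurons. The Y-linked *kl* genes are male fertility factors that are transcribed in primary spermatocytes, where their very long introns form lampbrush-like loops.

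The *kl* genes differed from the others in gene length and not in the length of their exons. In the BDGP6.54 annotation *kl-5*, the outer arm beta heavy chain, lies on the minus strand at Y:22250-137486 and spans 115237 bases with 16 introns, the longest of 53833 bases. *kl-3*, the outer arm gamma heavy chain, lies on the plus strand at Y:336381-563165 and spans 226785 bases with 15 introns, the longest of 120259 bases. *kl-2*, an inner arm heavy chain, lies on the plus strand at Y:573088-664173 and spans 91086 bases with 11 introns, the longest of 39011 bases. Exons made up 14.7% of the *kl-2* gene, 6.12% of *kl-3* and 11.9% of *kl-5*. The long introns stood beside short ones, and 6, 6 and 11 introns of *kl-2*, *kl-3* and *kl-5* were under 100 bases.

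The other 6 genes spanned between 12587 and 32446 bases and had no intron above 4219 bases. The inner arm gene *Dhc16F* (X:18064483-18078472, plus strand) has 26 introns, and all 26 were under 100 bases. *Dhc62B* (3L:1759172-1771758, minus strand), also an inner arm gene, has 8 introns of at most 69 bases, and its exons overlap *CG8001* on the opposite strand. The inner arm gene *Dhc36C* (2L:17501401-17525515, plus strand) has 23 introns, of which 12 were under 100 bases and the longest measured 4116 bases. *Dhc98D* (3R:28486953-28519398, plus strand), another inner arm gene, has 48 introns with a longest of 1592 bases. *Dhc93AB* (3R:21024580-21042499, minus strand), an outer arm gene known from chordotonal neurons, has 29 introns with a longest of 815 bases. *CG3339* (3R:27294286-27322325, minus strand), annotated as a dynein heavy chain, has 31 introns with a longest of 4219 bases, and its exons overlap *asRNA:CR44287* on the opposite strand. The summed exons ran from 12090 to 15919 bases over all 9 genes. Among all 61612 annotated introns, 49.9% were under 100 bases.

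**Figure D1:**
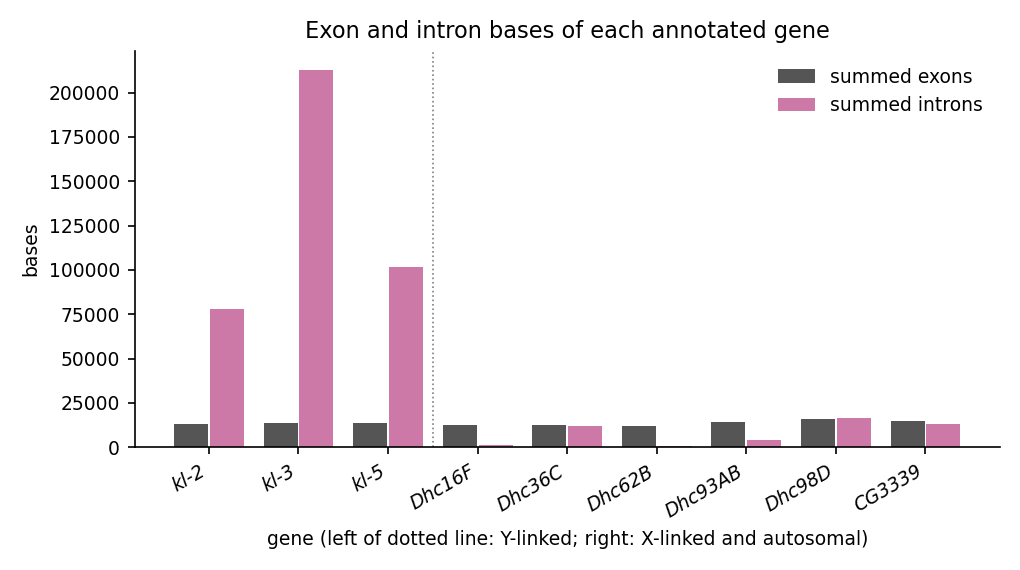
Bases in exons (grey) and in introns (pink) of each of the 9 genes in the BDGP6.54 annotation, with bases on the linear vertical axis and Y-linked genes left of the dotted line. The exon bars are of like height, from 12090 to 15919 bases, while the intron bars of the 3 *kl* genes rise far above those of the other 6.

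To show what the splice sites of these transcripts look like, both ends of 4 introns of the autosomal genes are printed. They were taken because the study followed intron splicing and these introns stand in its supplementary intron lists. Those lists hold retained introns and also unaffected control introns. Which kind each printed intron is was not recorded here. They lie at chr2L:17511349-17511425 (77 bases) and chr2L:17524883-17524947 (65 bases) in *Dhc36C*, at chr3L:1766169-1766227 on the minus strand (59 bases) in *Dhc62B* and at chr3R:28501872-28502244 (373 bases) in *Dhc98D*, and each matched an annotated intron. Each donor shows 3 exon and 6 intron bases and each acceptor 20 intron and 3 exon bases, from 5′ to 3′, with the first and last pair of intron bases in capitals.
Dhc36C 77-base intron, donor: cagGTgggg
Dhc36C 77-base intron, acceptor: actcttttagactcttacAGatc
Dhc36C 65-base intron, donor: cagGTaagt
Dhc36C 65-base intron, acceptor: gtttttaacttttattgtAGcac
Dhc62B 59-base intron, donor: cccGTaaga
Dhc62B 59-base intron, acceptor: ccaaggttaatcaattgcAGtgc
Dhc98D 373-base intron, donor: ctgGTaggt
Dhc98D 373-base intron, acceptor: ccgggtgcgatgaataacAGcac
All 4 introns begin with GT and end with AG. The donors differ from one another in the bases around the GT, and no intron of a *kl* gene was in the part of the lists that was read. Only entries printed with donor and acceptor sequences were read, so whether any *kl* intron was retained is not answered here.

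The deposited values carry no counts. The commonest value of FPKM times exon length among the lowest genes, taken as roughly the worth of 1 fragment, was 0.0619 to 0.0667 in testes and 0.0352 to 0.0373 in larvae, so that depth was alike within a tissue. Of the targeted locus, only *moi* was matched to a row. It measured 10.1 and 11.4 FPKM in wild-type testes and 3.81 and 2.71 FPKM in *tgs1hypo* testes, which is −1.47 on the log2 scale (SE 0.16, limma adjusted p = 0.000389). The study describes *moi* and *tgs1* as sharing a single mRNA, so reads from either cDNA may be counted in this row. Its level therefore does not settle which genotype the libraries carry. In larvae *moi* measured 4.64 and 7.42 FPKM in wild type, against 6.41 and 6.85 FPKM in the mutant, so the level of this transcript did not check the frameshift allele. With limma on log2(FPKM + 1), 806 of 11343 testis genes were called lower (7.11%) and 402 were called higher (3.54%) at an adjusted p under 0.05 and a log2 change of at least 1. With median-of-ratios scaling the split was 975 lower and 280 higher. The median log2 change over all testis genes tested was 0.11. With 2 libraries against 2, an exact permutation test of a single value cannot go below 0.333, and nothing says that the replicates came from separate crosses, so that p-values measure only the spread between these libraries.

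In *tgs1hypo* testes the mRNA of the outer arm gene *kl-5*, the inner arm gene *kl-2* and the autosomal inner arm gene *Dhc36C* fell, while that of the X-linked inner arm gene *Dhc16F* was not called. *kl-5* was 12.4-fold lower, *kl-2* 3.60-fold lower and *Dhc36C* 3.43-fold lower than in wild type. Of the 9 genes, 7 passed the filter of a mean of 1 FPKM and were tested, 3 were called lower and 0 were called higher, beside 7.11% and 3.54% of all genes tested. At the adjusted p alone, 5 of the 7 were lower, beside 23.4% of all genes. In 6 of the 7, the mutant libraries were both below the wild-type ones, beside 32.6% of all genes, and in *Dhc16F* they were both above, beside 47.7%. *kl-5* passed the filter only through its wild-type libraries, so that the count over the genes that passed is no support on its own.

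*kl-5* measured 8.51 and 9.26 FPKM in wild-type testes, against 0.737 and 0.701 FPKM in the *tgs1hypo* libraries. Both mutant libraries were far below both wild-type libraries, and the mean went from 8.89 ± 0.532 (SD, n = 2) to 0.719 ± 0.0253 FPKM, which is 8.09% of wild type. The log2 change of log2(FPKM + 1) was −2.52 (SE 0.14, limma adjusted p = 3.18e-05), the 58th lowest of the genes tested. On the estimate given above, about 1870.6 and 1953.2 fragments stood behind the wild-type values and 162.8 and 143.9 behind the mutant values.

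*kl-2* measured 4.13 and 4.34 FPKM in wild type, against 1.04 and 1.31 FPKM in *tgs1hypo* testes. The groups did not overlap, and the mean went from 4.24 ± 0.143 to 1.18 ± 0.194 FPKM (SD, n = 2), which is 27.8% of wild type. The log2 change was −1.27 (SE 0.15, limma adjusted p = 0.00056).

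*kl-3* measured 3.89 and 4.16 FPKM in wild type, against 2.03 and 2.27 FPKM in *tgs1hypo* testes. The groups did not overlap, and the mutant mean of 2.15 ± 0.168 FPKM was 53.4% of the wild-type mean of 4.03 ± 0.187 FPKM (SD, n = 2). The log2 change of −0.67 (SE 0.14) had a limma adjusted p of 0.00648 and was under the limit on size, so *kl-3* was not called. In wild-type testes *kl-2* and *kl-3* overlapped in level while *kl-5* lay above both, and in *tgs1hypo* testes the order was *kl-3*, *kl-2* and *kl-5*, with no overlap between neighbours.

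**Figure D2:**
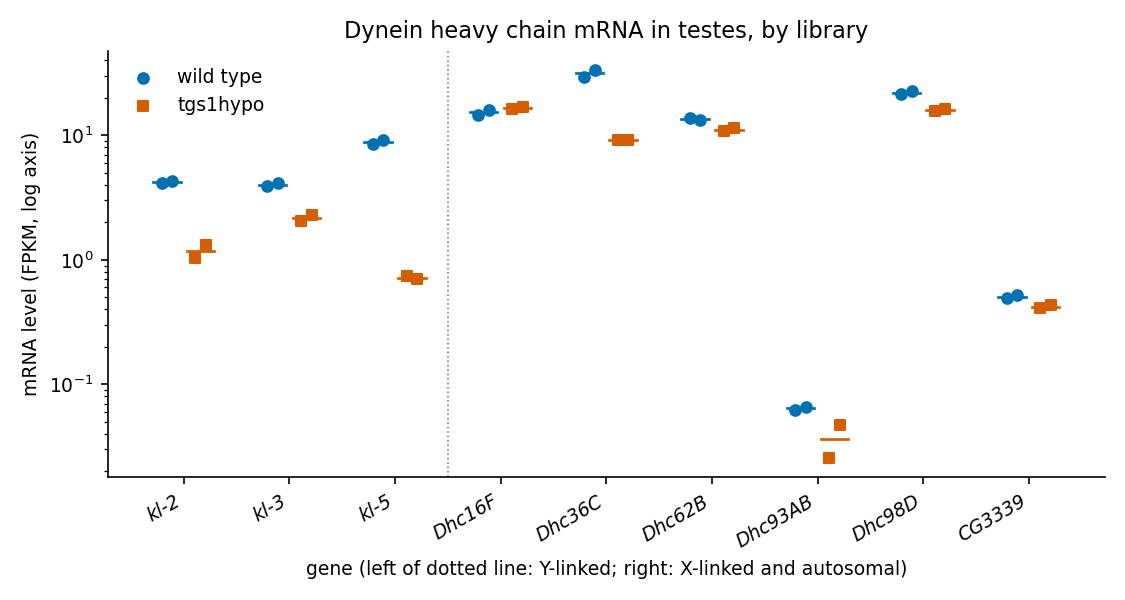
FPKM of the 9 genes in each testis library on a log axis, with points for the libraries (circles wild type, squares *tgs1hypo*), a line for the mean of each pair, and Y-linked genes left of the dotted line. *kl-5* goes from a mean of 8.89 to 0.719 FPKM and *Dhc36C* from 31.5 to 9.17 FPKM, while *Dhc16F* lies at 15.4 and 16.7 FPKM.

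Among the other genes, *Dhc36C* had the highest level in wild-type testes, with 29.5 and 33.5 FPKM, and measured 9.24 and 9.10 FPKM in *tgs1hypo* testes. The mutant libraries were close to each other and well below both wild-type libraries, and the mean went from 31.5 ± 2.77 to 9.17 ± 0.0997 FPKM (SD, n = 2). The log2 change was −1.67 (SE 0.10, limma adjusted p = 3.79e-05). As a share of wild type, the 29.1% left of *Dhc36C* stood beside the 27.8% left of *kl-2* and the 53.4% left of *kl-3*.

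*Dhc98D* measured 21.5 and 22.7 FPKM in wild type, against 15.6 and 16.4 FPKM in *tgs1hypo* testes. The groups did not overlap, and the mutant mean was 72.5% of wild type, a difference of −0.44 on the log2 scale (SE 0.09, limma adjusted p = 0.00491) that was under the limit on size. *Dhc62B* measured 13.7 and 13.3 FPKM in wild type, against 10.8 and 11.4 FPKM in *tgs1hypo* testes. Its mutant mean was 82.4% of wild type, and the log2 change of −0.26 (SE 0.10) had a limma adjusted p of 0.0595, just above the limit. The limma adjusted p of *Dhc62B* was 0.0144 with median-of-ratios scaling, 0.0138 with quantile normalization and 0.0459 without the trend, and 0.054 to 0.296 in the other alternatives, all with a change under the limit on size. Reads of *Dhc62B* and the overlapping *CG8001* cannot be told apart if strand was not used in counting, which the sources used here do not state. The testis values of *Dhc62B* were listed for 3L:1756158-1771758, a longer stretch than the annotated gene and than that of the larval values. Its testis and larval values may thus rest on different gene models.

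*Dhc16F* measured 14.6 and 16.1 FPKM in wild type, against 16.3 and 17.1 FPKM in *tgs1hypo* testes. The mutant libraries lay just above the wild-type libraries, the mean was 108% of wild type, and the log2 change of 0.11 (SE 0.10, limma adjusted p = 0.359) did not pass the test and was close to the median of all genes. With quantile normalization its log2 change was −0.00037, so that no direction is given for it.

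The other 2 genes were near the floor in testes and were not tested. *CG3339* measured 0.490 and 0.523 FPKM in wild type, against 0.406 and 0.434 FPKM in *tgs1hypo* testes, from about 96.2 to 119.3 fragments a library. *Dhc93AB* measured 0.0625 and 0.0654 FPKM in wild type, against 0.0256 and 0.0468 FPKM in *tgs1hypo* testes, from about 5.8 to 14.1 fragments. For both genes the mutant libraries lay below the wild-type libraries, and without the filter neither was called (limma adjusted p = 0.492 and 0.689).

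**Figure D3:**
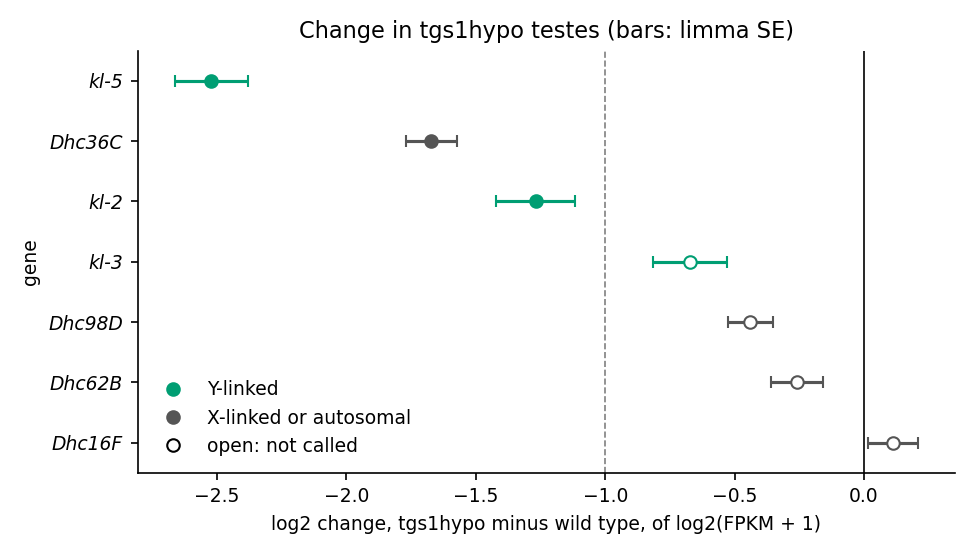
Log2 change of log2(FPKM + 1) from wild-type to *tgs1hypo* testes for the 7 genes tested, with bars for the limma SE, green for Y-linked and grey for X-linked or autosomal genes, open points for genes not called and a dashed line at the size limit of a fall. *kl-5* at −2.52, *Dhc36C* at −1.67 and *kl-2* at −1.27 lie past the dashed line, and *kl-3* at −0.67, *Dhc98D*, *Dhc62B* and *Dhc16F* do not.

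The order of the levels changed with the genotype. In wild-type testes it was *Dhc36C*, *Dhc98D*, *Dhc16F*, *Dhc62B*, *kl-5*, *kl-2*, *kl-3*, *CG3339* and *Dhc93AB*, and among these only *kl-2* and *kl-3* overlapped as neighbours. In *tgs1hypo* testes *Dhc16F* and *Dhc98D* overlapped at the top and were followed by *Dhc62B*, *Dhc36C*, *kl-3*, *kl-2*, *kl-5*, *CG3339* and *Dhc93AB*. The median log2 change of the 3 Y-linked genes was −1.27 and that of the 4 others tested was −0.35, a difference of −0.92 that ranged from −1.40 to −0.71 with the pseudocount, the filter or the scaling.

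Ratios of genes within a library do not depend on the scaling of the library. The 3 Y-linked genes together took 17.1% of the summed FPKM of the 9 genes in each wild-type library and 6.77% and 7.29% in the *tgs1hypo* libraries. Their sum went from 16.5 and 17.8 to 3.81 and 4.29 FPKM, while the sum of the 6 others went from 79.9 and 86.2 to 52.4 and 54.5 FPKM. The share of the Y-linked genes was lower in both mutant libraries, a difference far larger than that between replicates, and the smallest p that the exact test can give here is 0.333.

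Relative to *Dhc16F* in the same library, *kl-5* went from 0.581 and 0.574 in wild type to 0.0452 and 0.0411 in *tgs1hypo* testes. The ratio of *kl-2* to *Dhc16F* went from 0.282 and 0.269 to 0.0638 and 0.0770, and that of *kl-3* from 0.266 and 0.258 to 0.125 and 0.133. All 3 Y-linked genes were thus lower against *Dhc16F* in both mutant libraries. The ratio of *Dhc36C* to *Dhc16F* went from 2.02 and 2.07 to 0.567 and 0.534. For *Dhc98D* it went from 1.47 and 1.41 to 0.959 and 0.964, and for *Dhc62B* from 0.935 and 0.826 to 0.665 and 0.669. The autosomal genes were also lower against *Dhc16F* in both mutant libraries, and *Dhc36C* by more than *kl-3*. The Y-linked genes did not keep their proportion to each other, since the ratio of *kl-5* to *kl-3* went from 2.18 and 2.23 to 0.363 and 0.309 and that of *kl-2* to *kl-3* from 1.06 and 1.04 to 0.511 and 0.579.

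**Figure D4:**
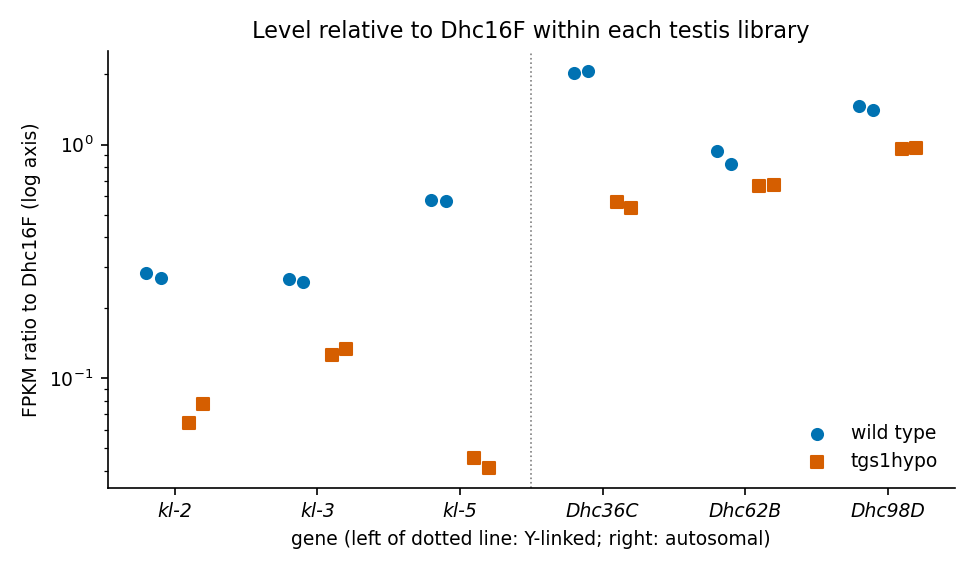
FPKM of 6 genes divided by that of *Dhc16F* in the same testis library, on a log axis, with circles for wild type, squares for *tgs1hypo* and Y-linked genes left of the dotted line. The squares lie below the circles for all 6 genes, with the widest gap for *kl-5*, from 0.574 and 0.581 down to 0.0411 and 0.0452.

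Levels in whole testes do not tell fewer cells of a type from less RNA per cell. Marker lists were therefore read for some cell types of the testis. No list of post-meiotic spermatid genes was read, although the study reported a meiotic arrest and no post-meiotic cells in *tgs1hypo* testes. The part of that loss in the values was not tested. Each list stands beside 3.54% called higher and 7.11% called lower among all testis genes tested. Of 13 spermatocyte and meiotic arrest genes, 3 were called higher (*comr* at 1.20, *nht* at 1.05 and *twe* at 1.04 on the log2 scale) and 0 were called lower, and each of these 3 calls was lost in 1 to 4 of 14 alternatives. *sa* (−0.98, limma adjusted p = 0.000342) and *can* (−0.91, limma adjusted p = 0.000369) lay just under the limit on size, and the list gave 1 higher and 2 lower with median-of-ratios scaling and 1 higher and 1 lower with quantile normalization. The summed level of this list was 753 to 755 FPKM in wild type, against 769 to 778 FPKM in *tgs1hypo* testes. No gene of it was at 0 in all libraries. The meiotic translation regulator *bol* led the sum and was lower in the mutant. It measured 395 and 424 FPKM in wild type, against 302 and 289 FPKM in *tgs1hypo* testes (log2 change −0.47, limma adjusted p = 0.000938). Over the list 8 log2 changes were positive and 5 negative, so the near-equal sums do not show unchanged genes. Of 9 spermatogonial and stem cell genes tested, 1 was called lower (*esg*, −1.09) and 0 higher, with sums of 59.3 to 67.3 FPKM in wild type, against 75.3 to 77.6 FPKM in the mutant. Of 9 somatic cyst and hub genes tested, 1 was called lower (*upd1*, the hub ligand, −1.51) and 0 higher, with sums of 92.8 to 98.1 FPKM in wild type, against 95.1 to 98.6 FPKM in the mutant. At the adjusted p alone 2 of the 9 were higher and 3 lower, beside 34.3% and 23.4% of all genes tested. These near-equal sums too do not show unchanged genes.

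The 11 accessory gland genes code for seminal proteins of a neighbouring organ. They were lower in both mutant libraries in 11 of 11 cases, beside 32.6% of all genes tested. Their sums were 5279 to 5503 FPKM in wild type, against 3584 to 3700 FPKM in *tgs1hypo* testes, and their median log2 change was −0.72. At the adjusted p alone 10 of these 11 were lower, beside 23.4% of all genes tested. With the limit on size 0 were called, but 2 were with median-of-ratios scaling or quantile normalization, and 0 or 1 when a library was left out. *Acp95EF* had the highest level of this list. Their log2 changes had the same sign as those of the *kl* genes and *Dhc36C*, and the part of carried-over tissue in the result was not tested. The 13 genes of ciliated sensory neurons summed to 42.0 to 45.1 FPKM in wild type, against 42.1 to 44.9 FPKM in the mutant, with 5 tested and 0 called. Of this list, the chordotonal transcription factor *fd3F* was at 0.0416 to 0.112 FPKM and the proneural gene *ato* was at 0 in 3 of the 4 libraries. The 5 genes tested, *Rfx*, *unc*, *dila*, *nompB* and *Oseg1*, which other ciliated cells can also use, measured 3.90 to 17.4 FPKM, with log2 changes from −0.72 for *Oseg1* to 0.88 for *unc*. The list thus gave no single direction.

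Dynein heavy chains outside the 9 genes gave a mixed picture. *CG17150*, an autosomal heavy chain gene at 3L:4861269-4895749, measured 42.5 and 47.9 FPKM in wild type, against 19.4 and 21.3 FPKM in *tgs1hypo* testes, above every one of the 9 genes in both groups. Both mutant libraries were below both wild-type libraries, a difference of −1.11 on the log2 scale (SE 0.09, limma adjusted p = 0.000123), and the gene was called lower. *CG9492*, a heavy chain of the gamma type, measured 1.17 and 1.18 FPKM in wild type, against 1.16 and 1.31 FPKM in the mutant, which overlapped (log2 change 0.04, limma adjusted p = 0.842). *Dhc64C*, the heavy chain of cytoplasmic dynein, measured 10.3 and 9.21 FPKM in wild type, against 7.51 and 8.96 FPKM in the mutant (log2 change −0.22, limma adjusted p = 0.186). *btv*, the heavy chain of intraflagellar transport, was under the filter with 0.482 and 0.460 FPKM in wild type, against 0.358 and 0.276 FPKM in the mutant.

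Among the genes of the heavy chains' partners, *Dic61B* and *CG8800* were called lower. *Dic61B*, a testis intermediate chain of axonemal dynein, measured 34.3 and 34.8 FPKM in wild type, against 3.58 and 3.97 FPKM in *tgs1hypo* testes, which is −2.90 on the log2 scale (SE 0.10, limma adjusted p = 1.01e-05). Of 14 intermediate and light chain genes, 13 were tested. Of these 2 were called lower and 0 higher, beside 7.11% and 3.54% of all genes tested. The median log2 change was −0.24, beside 0.11 for all genes. The other call was *CG8800*, with 2.0 and 1.89 FPKM in wild type, against 0.161 and 0.339 FPKM in the mutant (log2 change −1.24, limma adjusted p = 0.000984). It passed the filter only through its wild-type libraries, as *kl-5* did, and was not tested under some alternatives, so that its call is no support on its own. At the adjusted p alone 4 of the 13 genes were higher and 6 lower, beside 34.3% and 23.4% of all genes tested. *CG10859* had the highest level of the list, with 290 and 295 FPKM in wild type, against 252 and 227 FPKM in the mutant, and was not called. The *Sdic* genes of the list are near-identical copies, whose values are uncertain because reads can be split between them.

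Genes that assemble dynein arms gave no call at the main settings, and 1 was called higher with a pseudocount of 0.1, without wild-type replicate 2 or without *tgs1hypo* replicate 2. Of 10 assembly factors tested, 0 were called in either direction and 7 had a positive log2 change. The median was 0.51, a sign it kept under each scaling. At the adjusted p alone 7 of the 10 were higher and 1 lower, beside 34.3% and 23.4% of all genes tested. The lower one was *CG31623* (log2 change −0.71, limma adjusted p = 0.000259), named after its values were seen. *tilB*, an assembly factor needed for fly axonemal dyneins, measured 35.1 and 36.1 FPKM in wild type, against 73.3 and 70.2 FPKM in *tgs1hypo* testes. Its log2 change of 0.99 (SE 0.07, limma adjusted p = 5.96e-05) was just under the limit on size. *pont*, an ATPase of many assembly complexes, had the highest level of the list, with 89.0 and 79.7 FPKM in wild type, against 147 and 145 FPKM in the mutant. Of 15 cytoplasmic dynein and dynactin genes, 0 were called, with a median log2 change of 0.43, and *Cdlc2*, a light chain, had the highest level. At the adjusted p alone 8 of the 15 were higher and 1 lower. Of 6 axoneme and sperm tail genes, 0 were called, with a median of −0.20, and the testis tubulin *betaTub85D* had the highest level, with 1528 and 1628 FPKM in wild type, against 2026 and 1946 FPKM in the mutant. At the adjusted p alone 3 of the 6 were lower and 2 higher. *Tektin-C*, a doublet microtubule protein named after its values were seen, measured 170 and 166 FPKM in wild type, against 91.3 and 83.8 FPKM in the mutant (log2 change −0.93, limma adjusted p = 6.89e-05), and *dj*, a sperm tail protein named likewise, 933 and 1121 FPKM, against 607 and 568 FPKM (−0.80, limma adjusted p = 0.000571). With median-of-ratios scaling 1 of the 6 was called lower.

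The other Y-linked genes did not move as a block. Of 8 tested, 5 were called lower, namely *ARY* (−2.81 on the log2 scale), *CCY* (−2.24), *WDY* (−1.64), *ory* (−1.34) and *Ppr-Y* (−1.30), and 2 were called higher, *Pp1-Y1* (1.35) and *Pp1-Y2* (1.003), the latter call being lost in 4 of 14 alternatives. *FDY* (0.82) was not called. Among all genes tested 7.11% were called lower and 3.54% higher. Both *tgs1hypo* libraries of *ory* were under 1 FPKM, so that it too passed the filter only through wild type. The annotated introns were as long as 150611 bases in *Ppr-Y*, 137947 bases in *WDY* and 48321 bases in *ory*, but at most 113 bases in *ARY*, and *Pp1-Y1* and *Pp1-Y2* have 0 introns. Of 5 RNA-binding or regulatory genes that act on Y-loop transcripts of spermatocytes, 0 were called, with a median log2 change of −0.11. At the adjusted p alone 2 of the 5 were higher and 2 lower, beside 34.3% and 23.4% of all genes tested. The median thus does not show unchanged genes.

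The genes most like the Y-linked ones were taken as those with the smallest root mean square difference of log2(FPKM + 1) over the 4 testis libraries from the mean of *kl-2*, *kl-3* and *kl-5*. They were *GluRIIC* (0.0655), *CG32301* (0.0725), *CG13053* (0.0835), *asRNA:CR45890* (0.0880) and *D* (0.0986). *GluRIIC* measured 5.23 and 5.30 FPKM in wild type, against 1.04 and 1.33 FPKM in *tgs1hypo* testes. The *kl* genes themselves lay farther from their own mean, at 0.21 for *kl-2*, 0.41 for *kl-3* and 0.53 for *kl-5*, since their levels and changes were unlike each other.

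In second instar larvae all 9 genes were far below the filter in every library, and 0 of 9 were tested. *kl-5* was listed at 0 in both libraries of wild-type larvae, and it measured 0.00356 and 0.00265 FPKM in the *tgs12-3* libraries. *kl-2* was at 0.00526 FPKM in wild-type replicate 1 and at 0 in the other 3 libraries, and *kl-3* was at 0.00127 FPKM in wild-type replicate 1, at 0.00652 FPKM in mutant replicate 2 and at 0 in the rest. On the rough estimate none of these values came to more than about 2.5 fragments. The estimate is inexact here, since it gave only 0.5 fragments for *kl-3* in wild-type replicate 1. No fold is given, and a difference was not detectable at this depth.

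The other genes were at the lower end of the larval values too. *Dhc62B* measured 0.0457 and 0.232 FPKM in wild type, against 0.219 and 0.367 FPKM in *tgs12-3* larvae, and *Dhc93AB* 0.0537 and 0.157 FPKM in wild type, against 0.0904 and 0.0719 FPKM in the mutant. These were the highest of the 9, and for both the genotypes overlapped. *Dhc36C* measured 0.0394 and 0.0508 FPKM in wild type, against 0.0446 and 0.0582 FPKM in the mutant. *Dhc98D* measured 0.0229 and 0.0522 against 0.0159 and 0.0630 FPKM, *Dhc16F* 0.0341 and 0.0249 against 0.00685 and 0.0409 FPKM, and *CG3339* 0.00474 and 0.0191 against 0.0132 and 0.0280 FPKM. The genotypes overlapped for each of these genes as well, and without the filter 0 of the 9 were called, with limma adjusted p between 0.680 and 0.992.

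**Figure D5:**
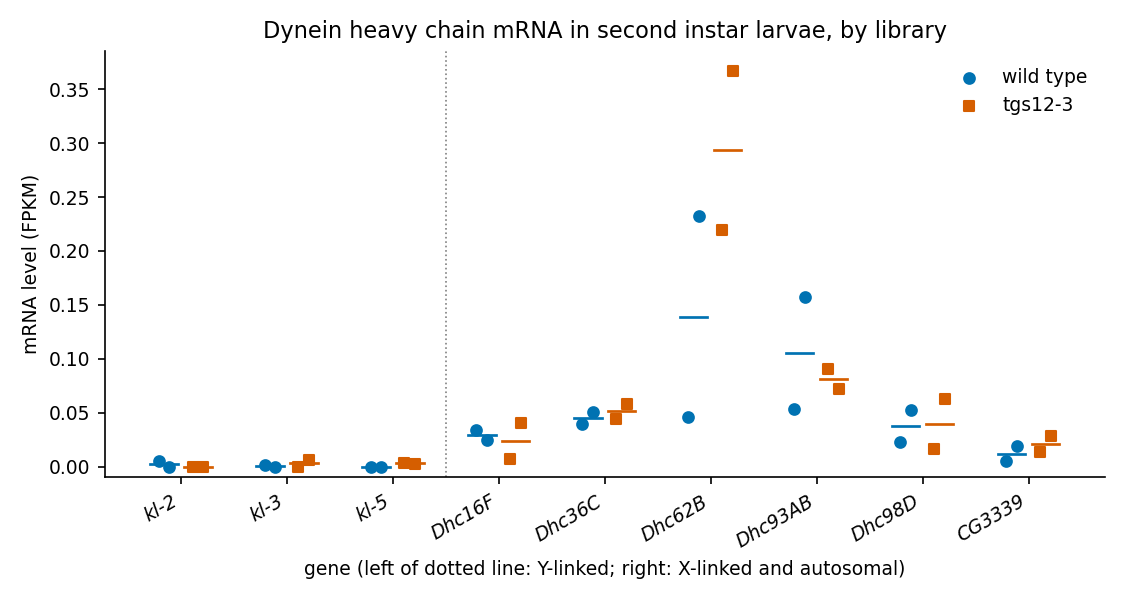
FPKM of the 9 genes in each larval library on a linear axis, with circles for wild type, squares for *tgs12-3*, a line for the mean of each pair and Y-linked genes left of the dotted line. The *kl* genes lie at or next to 0, and the highest value is 0.367 FPKM, for *Dhc62B* in mutant replicate 2.

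Over the 9545 larval genes tested, 0 were called in either direction (0% higher and 0% lower) with limma, 742 had an unadjusted p under 0.05, and the smallest adjusted p was 0.0886. The mutant libraries were both below the wild-type ones in 4.46% of these genes and both above in 43.1%, while among the 9 genes under the filter *kl-5* alone had both mutant libraries above. The median log2 change of all larval genes was 0.25, and it was 0.01 with median-of-ratios scaling. The larval libraries differed in makeup within a group. The male-specific RNA *roX1* measured 17.1 and 229 FPKM in wild type, against 177 and 131 FPKM in the mutant, and genes of the third instar summed to 5.42 to 53.0 FPKM in wild type, against 0.334 to 607 FPKM in the mutant. The part of sex and stage in the larval values was not tested. Among genes that sensory cilia use, 13 in all, 2 were tested and 0 were called, with sums of 6.0 to 6.83 FPKM in wild type, against 7.08 to 8.74 FPKM in *tgs12-3* larvae. Of the other heavy chains, *Dhc64C* measured 1.87 and 4.42 FPKM in wild type, against 3.78 and 5.58 FPKM in the mutant, while *CG9492* measured 0.115 and 0.0704 against 0.137 and 0.132 FPKM. The tables of testes and larvae were made separately, so levels are set side by side and no test was made between tissues.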

How the data were processed

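The authors deposited 1 table of FPKM values per tissue, with a column for each library. Reads were mapped with HISAT2 to the FlyBase genome; featureCounts and DESeq2 are named for expression, and the tool behind the FPKM values is not given in the sources used here. Counts were not analysed here, so depth and counting error are unknown apart from the rough worth of 1 fragment. Gene positions and introns came from BDGP6.54 (Ensembl release 115), which held 98.5% of testis and 99.2% of larval genes.

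Within each tissue, genes whose mean over the 4 libraries reached 1 FPKM were fitted on log2(FPKM + 1) with limma 3.58.1 (R 4.3.3; lmFit, eBayes with trend), genotype being the only term. A call needed a Benjamini-Hochberg adjusted p under 0.05, over all genes fitted, with a log2 change of 1 or more in size. A log2 change on this scale understates that of low genes. Ratios, lists and figures used pandas 2.3.3, matplotlib 3.10.9 and numpy 2.4.6 in Python 3.11.15. The method was tested on simulated data.

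The genes and lists were chosen with earlier results of these data known. Named by rule were the 9 genes, the other heavy chains, *moi*, and the called and the highest genes of the main lists. So were the 5 genes nearest to the mean of the *kl* genes. Added after their values were seen were *sa*, *can*, *CG31623*, *Tektin-C*, *dj* and further ciliary genes. Lists of male dosage compensation genes (1 of 7 called higher, *mof*) and of larval body genes (1 of 3 tested called lower, *Act57B*) served as further markers of makeup in testes. Alternatives were another pseudocount, filters, scalings, limits, no trend, the replicate number as a block, and each library left out. Splicing was not analysed here.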

Additional observations from a re-analysis of the deposited data

How the results depend on the processing

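In testes, the calls of *kl-5*, *kl-2* and *Dhc36C* were kept wherever the gene was tested, and their log2 changes ranged from −3.45 to −2.43, −1.77 to −1.16 and −1.77 to −1.59. *kl-2* and *kl-5* fall under a filter at a mean of 5 FPKM, which left 1 of the 9 genes called lower, 536 genes lower in all and no Y-linked gene to compare. At the adjusted p alone, 5 of the 9 were lower, with *kl-3* at −0.67 and *Dhc98D* at −0.44 added, and 3893 genes were higher and 2655 lower. The median log2 change of the Y-linked genes minus that of the others was −1.40 with a pseudocount of 0.1, −1.10 without a filter, −0.71 with quantile normalization and −0.99 with each library rescaled to a sum of 1000000. *Dhc16F* turned to −0.00037 with quantile normalization. Median-of-ratios scaling gave 280 genes higher and 975 lower. Leaving out each library in turn gave 386 to 478 genes higher, 751 to 931 lower, 3 of the 9 lower throughout and a difference of −0.98 to −0.86, where the spread of a lone library is taken from the other group. The replicate numbers were not shown to pair the libraries, as deviations of same-numbered testis libraries correlated at 0.13; with the replicate number as a block 403 genes were higher, 812 lower and 3 of the 9 lower. In larvae, leaving out each library gave 0 to 7 genes higher, the 7 without mutant replicate 1. The correlation there was −0.17, and a crossed pairing, chosen after seeing the data, called 1 gene higher and 0 lower, while the replicate block called 0. Among list genes, *esg* was not called with quantile normalization, *mof* not in 2 of 14 alternatives and *Act57B* not in 1 of 14; list counts that changed with the scaling are given beside those lists. The larval difference between Y-linked and other genes has a value only without the filter (−0.0017). Precision rests on 2 libraries a group, and depth limits every larval value of the 9 genes and those of *Dhc93AB* and *CG3339* in testes.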
